A study of Mus musculus with 3 samples.

Results

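Binding of the liver factors HNF4A and FOXA2 was described over the gene cluster of Apoa1, Apoc3, Apoa4 and Apoa5 on mouse chromosome 9. The cluster was represented by every deposited peak that met a window of 110 kb, from 46 to 46.11 Mb of chromosome 9 in the mm9 build. It held 8 of the 21041 peaks of both factors, namely 6 of 11703 HNF4A peaks and 2 of 9338 FOXA2 peaks, and none of the 1263 regions called in input chromatin. All 3 libraries came from wild-type C57BL/6 embryos at embryonic day 14.5, from livers that were pooled before hepatoblasts, embryonic liver cells that give rise to hepatocytes and biliary cells, were enriched by magnetic sorting for the surface protein DLK1. Chromatin immunoprecipitation was done with the antibody sc-8987 against HNF4A in one library and sc-6554 against FOXA2 in another, and the third was input chromatin with no antibody. There was 1 library per group, so nothing below has a replicate check and no test was made. The lists hold no expression values, so the label hepatoblast was not checked against marker genes.

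The 4 genes encode apolipoproteins, the proteins that carry lipids in blood and steer their uptake. Apoa1 encodes the main protein of high-density lipoprotein, Apoc3 an inhibitor of triglyceride clearance, Apoa4 a protein of chylomicrons and high-density lipoprotein, and Apoa5 a liver protein that promotes triglyceride breakdown. HNF4A is a nuclear receptor that binds direct repeats of a short hexamer and is a known activator of apolipoprotein genes in liver. FOXA2, of the forkhead family, is known for opening compacted chromatin at liver enhancers. In the RefSeq gene order of the GRCm38.p6 build, Sik3, a kinase gene, comes just before Apoa1, followed by Apoc3, Apoa4, Apoa5 and then Zpr1. The only gene position in mm9 used here was that of Apoa1, about 46036700 to 46038600, given to the nearest 100 bp. Peaks were therefore placed by their distance from the Apoa1 start and were not assigned to the other genes.

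HNF4A peaks lay on both sides of the Apoa1 start, and 1 lay across it, whereas both FOXA2 peaks lay upstream. The promoter sequences of 3 of the 4 genes are shown because an HNF4A peak covered the place of the Apoa1 start, and because Apoa4 and Apoa5 are the other members in the RefSeq promoter table of GRCm38.p6; Apoc3 was matched in the RefSeq gene table only. Each run is the 250 bases before the gene start, 5′ to 3′ on the plus strand of chromosome 9, and capitals mark the matches described after them. In GRCm38.p6 they are chr9:46228380-46228629 for Apoa1, chr9:46240594-46240843 for Apoa4 and chr9:46268358-46268607 for Apoa5, of whose 2 listed starts the first was used. These positions cannot be set beside the mm9 positions of the peaks.
Apoa1: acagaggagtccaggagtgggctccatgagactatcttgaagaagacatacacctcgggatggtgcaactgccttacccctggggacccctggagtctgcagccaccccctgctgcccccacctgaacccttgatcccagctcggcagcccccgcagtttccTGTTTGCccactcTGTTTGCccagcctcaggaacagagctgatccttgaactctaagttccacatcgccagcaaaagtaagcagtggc
Apoa4: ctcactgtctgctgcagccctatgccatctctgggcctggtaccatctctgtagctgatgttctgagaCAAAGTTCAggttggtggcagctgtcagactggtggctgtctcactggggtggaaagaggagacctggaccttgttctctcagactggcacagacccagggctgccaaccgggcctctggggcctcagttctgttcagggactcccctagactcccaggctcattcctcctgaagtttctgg
Apoa5: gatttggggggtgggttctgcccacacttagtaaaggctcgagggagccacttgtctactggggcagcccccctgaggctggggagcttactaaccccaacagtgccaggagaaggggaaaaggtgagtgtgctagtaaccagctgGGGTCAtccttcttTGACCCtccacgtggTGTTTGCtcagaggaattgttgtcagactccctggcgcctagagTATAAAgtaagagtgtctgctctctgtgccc

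Promoter windows of 300 bases, 250 before and 50 after the start, were searched on both strands for exact matches to the HNF4 core CAAAGNNCA, the nuclear receptor hexamers AGGTCA or GGGTCA, the forkhead motifs TGTTTAC or TGTTTGC or TATTTAC or TATTTGC, and the TATA box TATAAA. A core whose free bases read GT also contains the hexamer AGGTCA, so these overlap. The Apoa1 promoter held 2 copies of TGTTTGC, at bases 88 to 82 and 75 to 69 before the start. Of all 32851 promoters listed by RefSeq, 5.07% held TGTTTGC at least once in the 300 bases, and 13.5% held any of the forkhead motifs searched. Before the start, 4.3% held TGTTTGC at least once and 0.167% held it 2 or more times. Repeated copies were counted for this motif alone, so the last share does not allow for the other motifs searched. No listed motif other than TGTTTGC matched exactly in the Apoa1 promoter, and forms with a changed base were not searched. The Apoa4 promoter held 1 HNF4 core, at bases 182 to 174 before the start, a motif present in 6.36% of all promoters. The Apoa5 promoter held 2 GGGTCA hexamers, 1 on each strand, at bases 104 to 99 and 90 to 85 before the start, as well as 1 TGTTTGC at 75 to 69 and 1 TATAAA at 31 to 26. GGGTCA was found in 13.7% of promoters, AGGTCA or GGGTCA in 27.5%, and TATAAA in 13.6%. None of these 3 windows held AGGTCA, found in 16.3% of promoters, or the other forkhead motifs, TGTTTAC with 3.65%, TATTTAC with 3.04% and TATTTGC with 2.76%. These matches describe letters in the windows and not bound sites. Sequences of the peaks themselves were not read, because no mm9 genome was used here.

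At the Apoa1 start there was an HNF4A peak and no FOXA2 peak. The HNF4A peak ran from 46036424 to 46036942, from 276 bp before to 242 bp after the given start, and so would take in most or all of the stretch printed for Apoa1 if the gene start is the same in both builds. Its score was 30, the second highest of the 6 HNF4A peaks in the window. The score is a whole number that the authors gave each peak without a stated definition, and it was compared only within a list. A score of 30 ranked 3429th of 11703 HNF4A peaks, tied with others so that 252 peaks had this value, and 31.4% of the list scored as high or higher. On chromosome 9 it ranked 171st of 616. The nearest FOXA2 peak had its centre 12878 bp away. The peak was 519 bp wide, and 27.0% of HNF4A peaks were as wide or wider.

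The strongest site of the cluster lay upstream of Apoa1 and carried a peak of each factor. The HNF4A peak at 46023709 to 46024100 scored 75, and its centre was 12.8 kb before the Apoa1 start. It ranked 218th of 11703, with 16 peaks at that score, and 1.99% of the list scored as high or higher. On chromosome 9 it ranked 10th of 616, with 3 peaks tied, behind 9 peaks with scores up to 119, of which 4 overlapped FOXA2. The FOXA2 peak at 46023610 to 46024000 scored 35, the higher of the 2 in the window. It ranked 829th of 9338, with 58 peaks tied, and 9.49% of the list scored as high or higher, while on chromosome 9 it ranked 52nd of 488. Both peaks thus stood in the upper 10% of their lists, the HNF4A peak higher than the FOXA2 peak.

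Their common stretch was 292 bp, from 46023709 to 46024000, which is 74.5% of the HNF4A peak and 74.7% of the FOXA2 peak. The 2 centres were 99.5 bp apart, with FOXA2 farther from Apoa1. The median over all 2879 overlapping pairs was 59 bp, and 28.0% of pairs had centres at least as far apart as here. Overlapping pairs had a median HNF4A score of 27 and a median FOXA2 score of 19, so the pair upstream of Apoa1 was above both. In 40 of the 2879 pairs, this one included, both scores were at least as high, and 5 of these 40 lay on chromosome 9. When pairs were ordered by the lower of their 2 percentiles, the pair came 121st of 2879 and 6th of 154 on chromosome 9. The HNF4A peak ranked 105th and the FOXA2 peak 507th among these pairs by score alone.

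**Figure D1:**
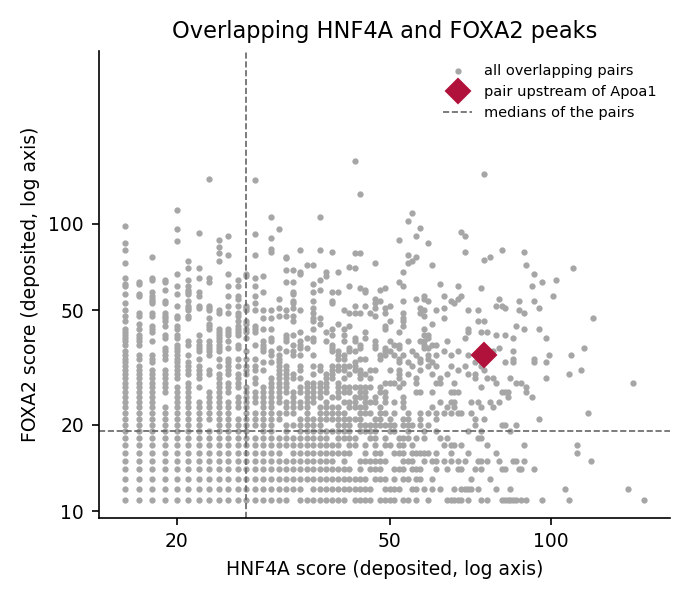
FOXA2 score against HNF4A score, both as deposited and on log axes, for all 2879 overlapping pairs (grey points, pairs with equal scores drawn once), with dashed lines at the medians of 27 and 19. The pair upstream of Apoa1 (diamond) lies at 75 and 35, right of and above both medians.

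The other upstream HNF4A peaks had low scores and no FOXA2 overlap. A peak at 46025150 to 46025717 scored 18 and followed the strong site after a gap of 1049 bp. Its centre was 1628.5 bp from that of the FOXA2 peak, the shortest such distance among the 5 HNF4A peaks without overlap. The peak at 46015127 to 46015959, 21.2 kb before the Apoa1 start, scored 20. At 833 bp it was the widest peak in the window, and 2.70% of HNF4A peaks were as wide or wider. The peak at 46033361 to 46033747, 3.15 kb before the start, had the lowest HNF4A score of the window, 17, against a lowest value of 16 in the whole list. With the scores of 20, 18 and 17, these 3 peaks ranked 7251st, 8703rd and 9551st of 11703, below the list's median score of 23. Whether they lie in Sik3, the gene that precedes Apoa1, was not determined.

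A single peak lay beyond Apoa1, on the side of Apoc3, Apoa4 and Apoa5. This HNF4A peak ran from 46043740 to 46044104, starting 5140 bp after the given end of Apoa1. Its score of 23 equalled the median of the list and ranked 5689th of 11703, with 454 peaks tied. It was the narrowest HNF4A peak of the window at 365 bp, and its centre was 20117 bp from the nearest FOXA2 centre. Apoc3 is the next gene after Apoa1 in the gene order, but which gene the peak lies in or beside was not assigned.

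No HNF4A or FOXA2 peak was listed in the remaining 65.9 kb of the window. The next peak of either factor began at 46357553, an HNF4A peak with a score of 19, which left an empty stretch of 313.4 kb after the last peak of the cluster. This was longer than the median gap between neighbouring peaks on chromosome 9, 35.9 kb, and 81 of 949 gaps there, or 8.54%, were as long or longer. Apoa4 and Apoa5 come after Apoc3 in the gene order. Of the genes in the window only Apoa1 had an mm9 position here, so peaks were placed by their distance from it alone. No value is given here for Apoc3, Apoa4 or Apoa5 on their own. An absent peak shows only that none passed the authors' threshold, since the depth of the libraries is unknown.

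FOXA2 had 1 further peak, at the far upstream end. It ran from 46007752 to 46008140, its centre 28.8 kb before the Apoa1 start, and scored 12, where the lowest value of the list is 11. It ranked 6595th of 9338, tied so that 1202 peaks had this score, and 83.5% of FOXA2 peaks scored as high or higher. The nearest HNF4A peak, the 833 bp one, began 6986 bp after its end. Outside the window the nearest FOXA2 peaks lay 33.1 kb before it, with a score of 18, and 952.1 kb after it, with a score of 11. The nearest HNF4A peak before the window was 65.2 kb away and scored 18.

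**Figure D2:**
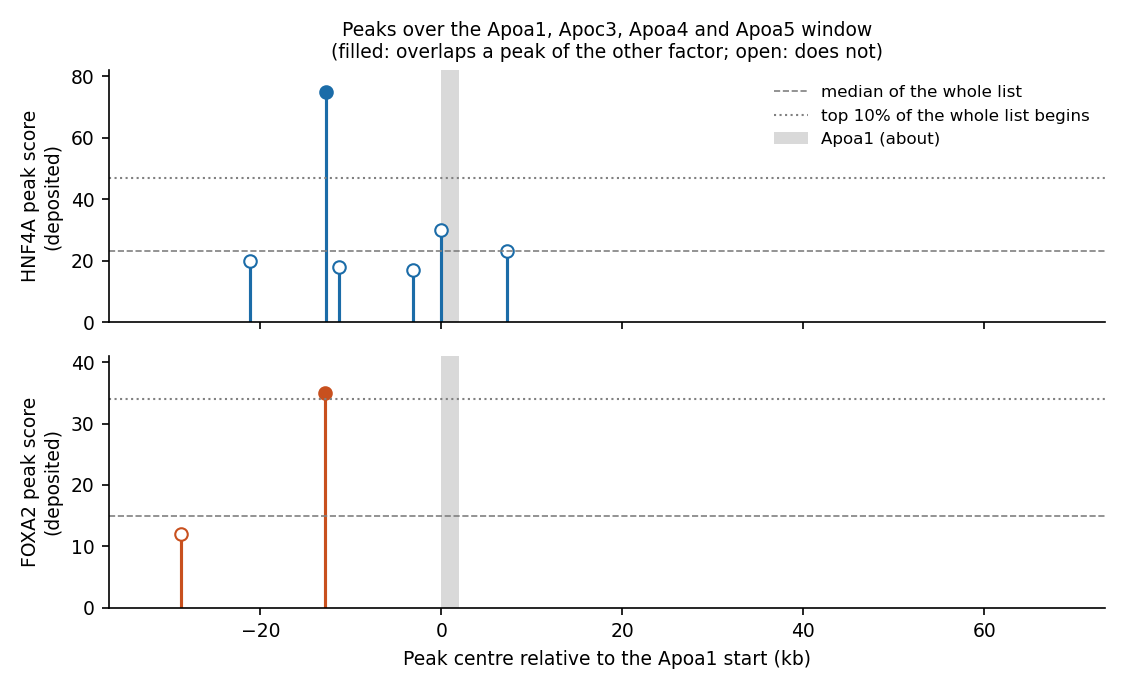
Deposited score of each HNF4A peak (upper panel) and FOXA2 peak (lower panel) against the distance of its centre from the Apoa1 start in kb, with filled symbols for peaks that overlap the other factor. Dashed and dotted lines mark the median and the score at which the top 10% of each whole list begins (23 and 47 for HNF4A, 15 and 34 for FOXA2), the grey band marks Apoa1, and the shared site at 12.8 kb upstream is the only one above both dotted lines.

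The scores of the 8 peaks were spread widely over their lists. HNF4A scores in the window were 17, 18, 20, 23, 30 and 75, with a median of 21.5, against 23 for the whole list and 23 for chromosome 9. Thus 3 of the 6 were at or above the median and 1 was in the top 25%, which begins at 33. The 2 FOXA2 scores, 12 and 35, lay on either side of that list's median of 15. The 6 peaks outside the shared site were all below the top 25% of their lists.

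**Figure D3:**
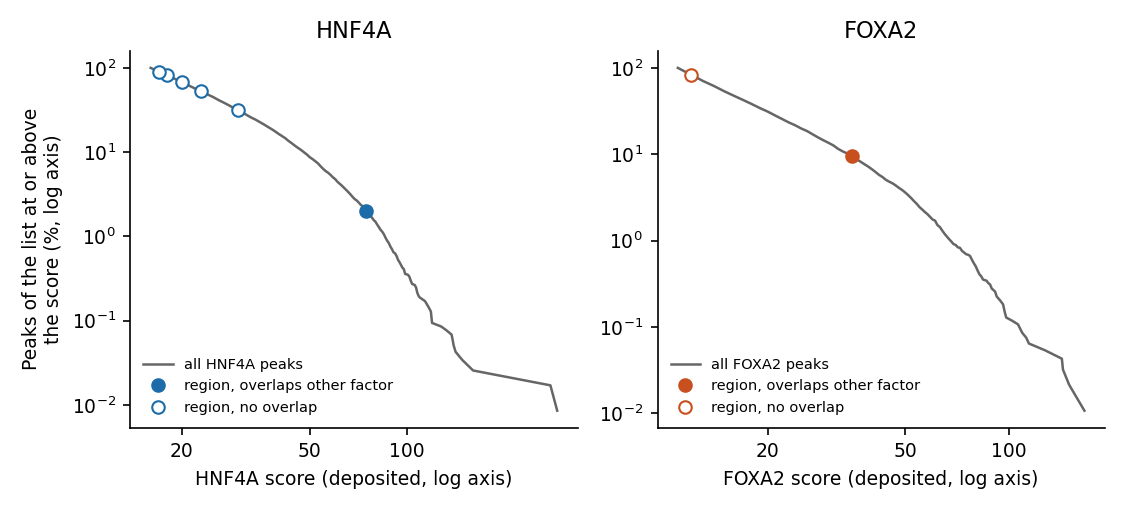
Share of each whole list at or above a given deposited score (grey line, log axes, mitochondrial peaks included), with the window's 6 HNF4A peaks (left) and 2 FOXA2 peaks (right) placed on the line. The shared peaks (filled) stand at 1.99% and 9.49%, and the peaks without overlap (open) between 31.4% and 89.9% for HNF4A and at 83.5% for FOXA2.

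Of the 6 HNF4A peaks 1 overlapped FOXA2, or 16.7% (exact 95% binomial interval 0.421 to 64.1%, counting error only). Over the whole HNF4A list 24.4% of peaks overlapped FOXA2, and on chromosome 9 it was 25%, or 154 of 616. The interval holds both values, but it treats the 6 peaks as independent, which neighbouring peaks are not, so it is no test. With so few peaks, no difference from the share elsewhere can be read. Of the 2 FOXA2 peaks 1 overlapped HNF4A, beside 30.7% of the whole FOXA2 list and 31.6% of the 488 on chromosome 9. There were 3 HNF4A peaks per FOXA2 peak in the window, against 1.26 on chromosome 9 and 1.25 over the whole lists. This ratio rests on 6 and 2 peaks. With bounds wider by 50 kb on each side there were 6 HNF4A and 3 FOXA2 peaks.

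HNF4A peaks were dense here. The window had 5.46 HNF4A peaks per 100 kb, and chromosome 9 up to its last listed region had 0.497, a ratio of 11.0. For FOXA2 it was 1.82 against 0.393, a ratio of 4.62. HNF4A peaks covered 2.79% of the window and 0.233% of the chromosome, and FOXA2 peaks 0.709% and 0.148%. Among 12395 windows of 110 kb, laid along chromosome 9 in steps of 10 kb, 67 held at least 6 HNF4A centres, or 0.541%, and 25 held more. At least 2 FOXA2 centres were found in 1235 windows, or 9.96%. Adding both factors, 137 windows, or 1.11%, held 8 or more. Windows overlap and the cluster was chosen for its genes with earlier results known, so these shares rank the window and are not p-values.

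The number of FOXA2 peaks varied among such HNF4A-dense windows. The 67 windows with at least 6 HNF4A peaks, which include the one described here, held 0 to 8 FOXA2 peaks with a median of 3. Of these windows 26, or 38.8%, held no more than the 2 found here. Because windows overlap, a dense stretch is counted in several of the 67, and so is the cluster described here. The counts thus describe windows and not separate loci. The 3 windows of chromosome 9 with the most peaks of both factors together, none overlapping another, held more FOXA2 peaks than the window here. FOXA2 peaks counted in the choice of these windows, so this was partly set in advance. These windows began at 103.11, 121.99 and 61.13 Mb and held 11, 6 and 7 HNF4A peaks with 7, 8 and 6 FOXA2 peaks. Their highest HNF4A scores were 72, 67 and 38, all under the 75 of the site upstream of Apoa1. Their highest FOXA2 scores were 80, 24 and 82, against 35 here.

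**Figure D4:**
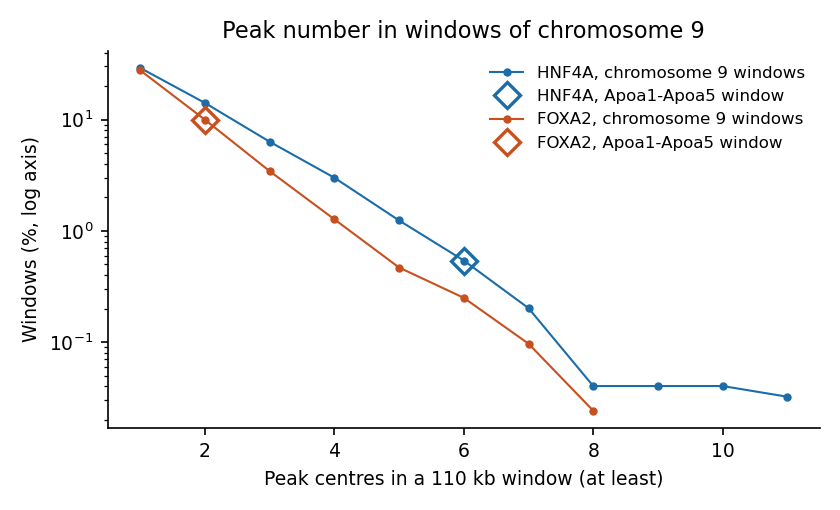
Share of 110 kb windows of chromosome 9 (log axis) that held at least the number of HNF4A or FOXA2 peak centres on the horizontal axis. Diamonds mark the apolipoprotein window, with 6 HNF4A peaks at 0.541% and 2 FOXA2 peaks at 9.96%.

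All 8 peaks fell into 1 cluster of neighbouring sites. With overlapping peaks merged into a site and sites at most 12500 bp apart joined, they formed 7 sites over 36.4 kb. The gaps between neighbouring HNF4A peaks were 7749, 1049, 7643, 2676 and 6797 bp in order along the chromosome. Over the genome 59 of 12506 clusters, or 0.472%, had 7 or more sites, and on chromosome 9 it was 3 of 671, where 504 were single sites. In 7 of those 59 the highest HNF4A score was also 75 or more. The cluster came apart when only sites within 5 kb were joined, which left 2 sites in its largest piece. The closest listed input region was 10.9 Mb from the cluster, and 40 lay on chromosome 9 in all.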

How the data were processed

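HNF4A, FOXA2 and input libraries of sorted hepatoblasts were analysed as lists of regions, 1 list per library. The deposited lists give positions and, for each region, a score in whole numbers made by the authors. Build mm9 is named per the submitters' processing notes. The aligner, the peak caller, its threshold and what the score means were not given in the sources used here. Depth is unknown. Starts and ends were taken as 1-based and inclusive, since the lowest start is 1, and 1 line without a region was skipped. From these lists, ranks, overlaps of at least 1 bp, window counts and clusters were computed with Python 3.11.15, numpy 2.4.6 and pandas 2.3.3, after a check on simulated lists; matplotlib 3.10.9 drew the figures. Equal scores share the best rank. Every peak of the window is named. Gene order and promoters came from RefSeq tables of GRCm38.p6 and no coordinates were converted. The genes, the window and the lists were chosen with earlier results of these data known. Alternatives varied overlap, score threshold, bounds, windows, joining distance and promoter length.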

Additional observations from a re-analysis of the deposited data

How the results depend on the processing

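Of 34 alternative values for 17 results, 25 stayed within 1.5 times the reported one and 9 moved further. Many of the 25 had little or no room to move. Among them were motif counts, whose matches all lay before the start, the shared pair, and percentiles near the top of a list. The tally is therefore no measure of robustness. With scores at or above the median of each list, 3 HNF4A peaks and 1 FOXA2 peak were left in the window. In the top 25% of scores it was 1 of each, the shared pair. Windows of chromosome 9 with as many peaks as the cluster were 1.99% for HNF4A and 18.0% for FOXA2 at or above the median score. Among windows with any peak they were 1.37% and 25.3%. Each of these sets holds fewer peaks or windows. Joining sites within 5 kb, over the same peaks, left 2 sites in the largest piece. The overlapping pair was kept under all 4 alternatives for a shared peak. Its overlap of 292 bp and its scores above both medians fixed this in advance for all but the centre rule. That rule, centres within 100 bp, was met narrowly at 99.5 bp. No paired analysis was possible because each group has 1 library. Depth is unknown and limits what an absent peak shows.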
